A study of Mus musculus with 6 samples.

Results

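The genes described here are 36 markers of the brain regions that border the hippocampus, read in 6 hippocampus arrays as a check of the dissection. They comprise 11 markers of the striatum or amygdala, 7 of the thalamus, 8 of the hypothalamus and 10 of the neocortex or subiculum, and were listed by the region each gene is known from. A gene was measured where a probe set carried its symbol and no other, and where several did, the brightest on average was taken. On this rule 33 of the 36 markers were measured, out of 22180 genes in all. Adora2a and Agrp had no probe set of that symbol here, and Ppp1r1b had only one that it shared with another symbol.

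RNA came from the hippocampus of male mice at postnatal day 21. The quadruple knockout mice carried Tnc -/-, Tnr -/-, Bcan -/- and Ncan -/- together, and so lacked the matrix proteins tenascin-C, tenascin-R, brevican and neurocan, while the wildtype mice carried none of the deletions. Each genotype had 3 arrays, labelled as biological replicates, and the methods describe the animals as siblings on an SV129 background whose RNA had to reach an integrity number of at least 9. A figure legend of the study calls the 3 samples dependent. How litters were divided between the genotypes is not given in the sources used here, so litter and genotype cannot be told apart. The main fit treats the arrays as independent. As labelled, the deletions are not limited to a cell type or region, so the array cannot separate an effect within the hippocampus from one that arose elsewhere. Signals are log2 values from RMA, the Robust Multichip Average, in which the arrays are background-corrected and given a shared distribution before the probes of each transcript are combined. Differences are quadruple knockout minus wildtype on the log2 scale, with a standard error (SE) from limma, which borrows information on the spread across all probe sets.

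The hippocampus lies under the neocortex, passes into it through the subiculum, rests on the thalamus and reaches the amygdala at its ventral end. The striatum is built mainly of spiny projection neurons that inhibit their targets and carry dopamine receptors and opioid or tachykinin peptides. The thalamus holds excitatory relay neurons specified by the transcription factors Tcf7l2, Lef1 and Gbx2, the hypothalamus holds scattered groups of peptide neurons, and the neocortex is layered, with Rorb in layer 4 and Fezf2 and Bcl11b in the deep layers. A marker of this kind is rarely confined to one region. Of the measured markers 8 were listed here as also known from hippocampal cells, namely Penk, Pdyn, Tac1, Foxp1, Bcl11b, Tbr1, Rora and Cux2. That list is not complete, and others among the markers may be expressed there too.

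The labels were checked on the targeted genes. Bcan read 5.85, 5.72 and 5.78 in the knockout arrays and 10.36, 10.68 and 10.42 in the wildtype arrays, and Ncan read 6.81, 6.35 and 6.78 in the knockout and 11.73, 11.82 and 11.80 in the wildtype. Both fell past the adjusted threshold (limma adjusted p = 2.38e-06 for Bcan), whereas Tnc and Tnr differed by -0.15 and -0.10 (limma adjusted p = 0.794 and 0.706). Over all 34472 probe sets 48 passed a limma adjusted p of 0.05. The median signal was 6.30 to 6.33 over the knockout arrays, below the 6.34 to 6.39 of the wildtype arrays, whereas the upper quartile was 8.42 to 8.43 over the knockout arrays and higher than the 8.35 to 8.41 of the wildtype arrays. The background level was set at 6.03, under which 95% of 1108 probe sets of olfactory receptors lay. An exact permutation of 3 against 3 arrays reaches a two-sided p of 0.1 at best for 1 gene, and the p-values measure only the spread between these arrays.

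None of the 33 markers differed between the genotypes past the adjusted threshold. Their limma adjusted p lay between 0.315 and 0.998, against 0.139% of all probe sets that passed. The median difference was -0.00, with 16 markers above 0 and 17 below, beside a median of 0.01 over all genes. At an unadjusted limma p under 0.05 there were 2 markers higher in the knockout, Tac1 and Rorb, or 6.06% of the markers against 3.91% of all probe sets. There were 3 lower, Pmch, Avp and Oxt, or 9.09% against 5.14%. The arrays of the genotypes did not overlap for 3 markers that were higher in the knockout, Tac1, Tcf7l2 and Rorb, which is 9.09% of the markers against 7.94% of all probe sets. They did not overlap for 4 that were lower, Pmch, Avp, Trh and Rspo1, which is 12.1% against 7.39%. Over the 22180 genes with 1 probe set each, counted as the markers are, the shares were 4.28% higher and 4.04% lower at that p, and 9.73% higher and 6.39% lower without overlap. The markers thus lay below the share of genes for the higher group without overlap, and each share of theirs rests on 2, 3 or 4 genes.

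Over all 6 arrays no marker reached the fold that the methods set, over 1.5-fold. The study's results also call genes with smaller folds altered, Gad2 among them. With 1 array left out, Tac1 passed 1.5-fold at an unadjusted limma p under 0.05 without wildtype replicate 1 (difference 0.61). Prkcd did so without wildtype replicate 2 (difference 0.66). The widest differences among markers above the background level were 1.48-fold for Meis2 and 1.43-fold for Tac1 in the higher direction and 0.84 times the wildtype signal for Avp in the lower. In bulk tissue fewer cells of a type and less RNA per cell cannot be told apart.

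**Figure D1:**
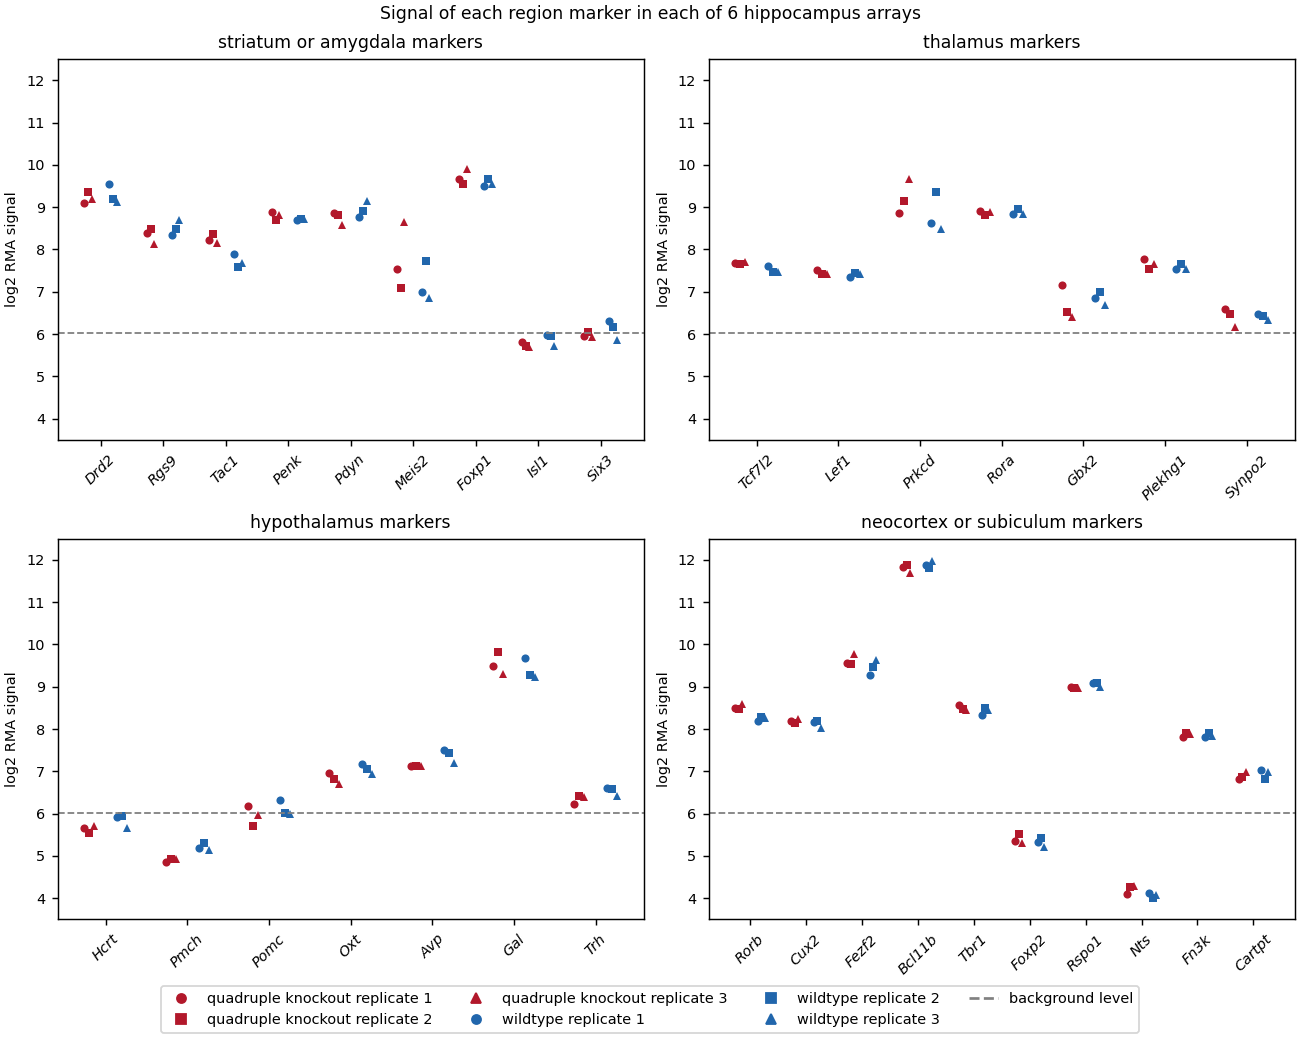
Log2 RMA signal of each of the 33 measured markers in each of 6 arrays, in 4 panels by region, with quadruple knockout in red left of wildtype in blue and the symbol giving the replicate. The dashed line is the background level of 6.03, and Hcrt, Pmch, Isl1, Foxp2 and Nts lie under it in every array.

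No array stood apart in all 4 regions at once. A dissection that took in a single neighbouring region would shift that list alone, so this reading cannot show it, and an average over all markers can hide it. The regions are therefore also given singly below. Each gene was centred on its mean over the 6 arrays and the centred values were averaged over a list. Over all 33 markers the averages were 0.02, -0.02 and 0.02 in the knockout arrays and 0.01, 0.04 and -0.07 in the wildtype arrays. Knockout replicate 1 held the highest signal of 6 markers, knockout replicate 2 of 3 and knockout replicate 3 of 8, while wildtype replicate 1 held the highest of 9, wildtype replicate 2 of 4 and wildtype replicate 3 of 3. Over all 22180 genes these counts were 3746, 3128 and 5034 in the knockout arrays and 3311, 3561 and 3400 in the wildtype arrays. Among the markers each array led for some and trailed for others, as is likely with 33 markers in any case.

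By region, the striatum or amygdala average was 0.02, -0.02 and 0.09 in the knockout arrays and -0.02, 0.02 and -0.10 in the wildtype arrays. The thalamus average was 0.11, -0.02 and 0.03 in the knockout and -0.06, 0.08 and -0.13 in the wildtype. For both regions wildtype replicate 3 was lowest and the genotypes overlapped. The neocortex or subiculum average was 0.01, 0.03 and 0.05 in the knockout and -0.04, -0.02 and -0.02 in the wildtype, a narrow span in which the knockout arrays lay above the wildtype arrays. The hypothalamus average was -0.06, -0.08 and -0.12 in the knockout and 0.21, 0.10 and -0.05 in the wildtype, so that here the knockout arrays lay below. Over the 5 hypothalamus markers with a mean above background it was -0.03, -0.05 and -0.13 in the knockout and 0.23, 0.05 and -0.07 in the wildtype, where the genotypes overlapped. These averages carry no test, and each rests on between 7 and 10 genes.

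**Figure D2:**
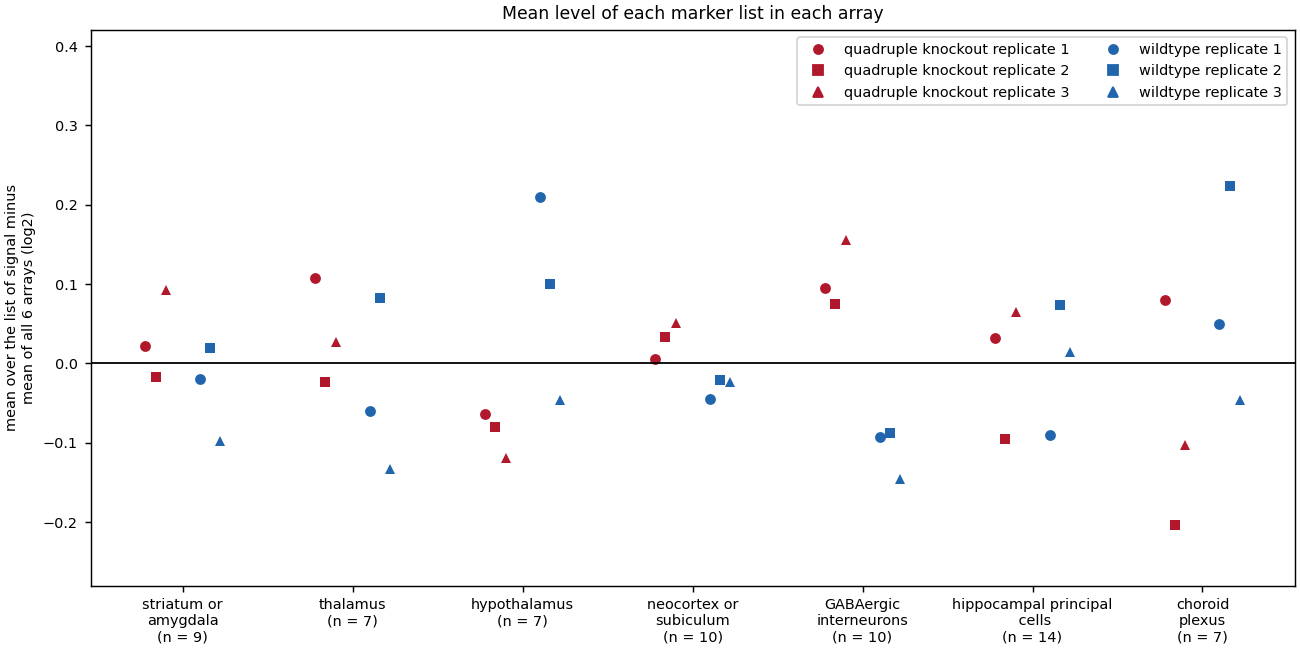
Mean over each list of the log2 signal minus the gene's mean over all 6 arrays, for the 4 regions and for interneuron, hippocampal principal cell and choroid plexus genes, with knockout in red left of wildtype in blue. The hypothalamus list spans -0.12 to 0.21 and the neocortex list -0.04 to 0.05, and the interneuron list lies above 0 in the 3 knockout arrays and below 0 in the 3 wildtype arrays.

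The markers above background with an unadjusted limma p under 0.05 were Tac1, Rorb, Oxt and Avp, and the stretch around the start of each is shown for that reason, although Meis2 and Prkcd differed by more with a wider spread. The windows are from RefSeq on GRCm38.p6, hold 250 bases before the annotated start and 50 after it, and are written on the gene's own strand. Tac1 lies at chr6:7554811-7555110 on the plus strand, Rorb at chr19:19111147-19111446 on the minus strand (the first of 2 windows given for it), Oxt at chr2:130575919-130576218 on the plus strand and Avp at chr2:130582539-130582838 on the minus strand. Capitals mark every match, on either strand, to TGACG, the half-site of the cyclic AMP response element, to TGACAG, the core bound by MEIS factors such as the marker Meis2, to TATAAA, the TATA box, and to CATAAA, letters shared by Oxt and Avp that were picked after the sequences were read.
Tac1: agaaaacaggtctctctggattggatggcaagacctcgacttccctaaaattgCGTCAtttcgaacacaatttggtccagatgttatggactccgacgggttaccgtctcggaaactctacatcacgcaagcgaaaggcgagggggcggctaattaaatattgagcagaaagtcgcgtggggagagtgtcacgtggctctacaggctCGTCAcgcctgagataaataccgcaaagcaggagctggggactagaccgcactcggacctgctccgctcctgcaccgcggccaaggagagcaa
Rorb: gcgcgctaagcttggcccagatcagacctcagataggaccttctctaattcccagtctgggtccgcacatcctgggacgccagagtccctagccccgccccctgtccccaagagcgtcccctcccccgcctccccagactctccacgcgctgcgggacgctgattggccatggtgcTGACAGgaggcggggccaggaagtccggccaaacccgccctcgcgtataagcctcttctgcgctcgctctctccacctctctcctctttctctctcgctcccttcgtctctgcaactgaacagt
Oxt: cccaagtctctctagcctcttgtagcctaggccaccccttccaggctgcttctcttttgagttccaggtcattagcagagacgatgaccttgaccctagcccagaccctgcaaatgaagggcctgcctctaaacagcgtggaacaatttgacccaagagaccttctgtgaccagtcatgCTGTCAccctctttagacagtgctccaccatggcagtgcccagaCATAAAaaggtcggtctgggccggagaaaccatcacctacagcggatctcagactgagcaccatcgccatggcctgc
Avp: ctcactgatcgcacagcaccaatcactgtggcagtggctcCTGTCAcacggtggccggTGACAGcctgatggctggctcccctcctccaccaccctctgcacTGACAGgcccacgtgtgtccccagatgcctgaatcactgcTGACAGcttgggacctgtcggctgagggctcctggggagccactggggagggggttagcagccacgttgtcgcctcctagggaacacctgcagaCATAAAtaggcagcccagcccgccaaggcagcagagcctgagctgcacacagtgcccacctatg
Tac1 held TGACG on the opposite strand at 197 and 43 bases before the start. Rorb held TGACAG at 74 bases before the start, Oxt held it on the opposite strand at 71, and Avp held 4 copies, at 210, 192, 148 and 108. CATAAA stood 27 bases before the start of Oxt and 14 before that of Avp, and none of the 4 windows held TATAAA. Over 32851 windows of the same length TGACG was found in 20.8%, TGACAG in 19.2%, TATAAA in 13.6% and CATAAA in 11.9%. Of the 30 markers with a window 9 held TGACG, 11 held TGACAG, 11 held TATAAA and 6 held CATAAA in any of their windows. The shares are by single window, and a marker with several windows has more chances, so counts and shares are not directly comparable. These are matches of letters and not known sites.

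Among the 9 measured markers of the striatum or amygdala, 8 had a mean above background, 4 differences lay above 0 and 5 below, and the median was -0.07. Tac1, which encodes the precursor of substance P and neurokinin A, had the smallest p of all 33 markers. It read 8.22, 8.36 and 8.15 in the knockout arrays and 7.90, 7.58 and 7.68 in the wildtype arrays. All knockout arrays lay above all wildtype arrays. The knockout mean was 8.24 ± 0.10 and the wildtype mean 7.72 ± 0.16 (SD, n = 3 each). The difference was 0.52 (SE 0.10, 95% interval 0.28 to 0.76, limma adjusted p = 0.315).

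The opioid peptides of the striatum had intervals that include 0. Penk, the precursor of enkephalins, averaged 8.80 ± 0.10 over the knockout and 8.71 ± 0.01 over the wildtype arrays, and Pdyn, the precursor of dynorphins, 8.75 ± 0.14 over the knockout and 8.94 ± 0.20 over the wildtype arrays (SD, n = 3 each). Their differences were 0.09 (95% interval -0.09 to 0.27) and -0.19 (95% interval -0.48 to 0.09). Drd2, the dopamine receptor of striatal neurons that project to the pallidum, read 9.11, 9.36 and 9.19 in the knockout and 9.56, 9.19 and 9.11 in the wildtype. Its highest array was a wildtype one and the genotypes overlapped (difference -0.07, SE 0.13, limma adjusted p = 0.891). Rgs9, which speeds the end of G-protein signalling downstream of dopamine receptors, differed by -0.17 (SE 0.13) with overlapping arrays.

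The transcription factors of the region did not separate the genotypes either. Meis2, a homeobox factor of striatal and other forebrain neurons, read 7.54, 7.08 and 8.66 in the knockout and 7.00, 7.73 and 6.85 in the wildtype. Knockout replicate 3 stood well above the other arrays, and the range of 1.81 was the largest of all markers. The difference was 0.56 (SE 0.41, limma adjusted p = 0.694), 0.12 without knockout replicate 3 and 0.90 without knockout replicate 2. Foxp1, a forkhead factor of striatal projection neurons that CA1 neurons also use, read 9.66, 9.55 and 9.91 in the knockout and 9.51, 9.66 and 9.55 in the wildtype, with knockout replicate 3 again the highest array (difference 0.13, SE 0.11). Isl1, a factor of striatal neurons of the direct pathway, was below background in all 6 arrays. Six3, another factor of developing striatal neurons, straddled the background level, with 5.95, 6.04 and 5.93 in the knockout and 6.30, 6.17 and 5.87 in the wildtype.

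All 7 thalamus markers had a mean above background, with 4 differences above 0, 3 below and a median of 0.04, which ran from 0.01 to 0.09 with 1 array left out. Tcf7l2, the factor that specifies thalamic relay neurons and mediates Wnt signalling, read 7.68, 7.65 and 7.70 in the knockout and 7.62, 7.47 and 7.47 in the wildtype. The knockout arrays lay within a narrow band just above the wildtype arrays (difference 0.16, SE 0.07, limma adjusted p = 0.572). Its relative Lef1 differed by 0.04 (95% interval -0.12 to 0.21) with overlapping arrays.

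Prkcd, the protein kinase C delta of thalamic relay neurons and of a set of central amygdala neurons, varied most among the thalamus markers. It read 8.85, 9.14 and 9.66 in the knockout and 8.63, 9.37 and 8.49 in the wildtype, a range of 1.17. Knockout replicate 3 was the highest array and wildtype replicate 2 came next, so the genotypes overlapped (difference 0.39, SE 0.27, limma adjusted p = 0.690). Without wildtype replicate 2 the difference was 0.66 with an unadjusted limma p of 0.02434 (limma adjusted p = 0.701). Rora, a nuclear receptor of thalamic neurons, read 8.91, 8.81 and 8.89 in the knockout and 8.83, 8.96 and 8.84 in the wildtype (difference -0.01, 95% interval -0.18 to 0.16). Gbx2, a homeobox factor of the developing thalamus, read 7.15, 6.51 and 6.40 in the knockout and 6.86, 6.98 and 6.68 in the wildtype, while its other probe set was below background in all 6 arrays. Plekhg1 and the actin-binding Synpo2 differed by 0.09 and -0.00, with overlapping arrays.

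Meis2 and Prkcd shared their order of arrays at the top, with knockout replicate 3 highest and wildtype replicate 2 next, and wildtype replicate 3 lowest. They were the 2 of 33 markers (6.06%) with a range over 1, against 211 of 22180 genes (0.951%). The median range was 0.40 over the markers and 0.31 over all genes. A search of the other lists for the same pattern, made after the values were seen, found among others Fibcd1, a gene of CA1 neurons, at 8.17, 7.99 and 9.64 in the knockout and 8.11, 8.57 and 8.18 in the wildtype. It also found Scn4b, a sodium channel subunit of striatal neurons, at 6.95, 6.73 and 7.33 in the knockout and 6.74, 7.19 and 6.65 in the wildtype. In each of these genes knockout replicate 3 was highest and wildtype replicate 2 next. Cyp26b1, which breaks down retinoic acid, read 7.85, 8.05 and 8.25 in the knockout and 7.77, 8.18 and 7.40 in the wildtype, again with the same pair of arrays on top. Knockout replicate 3 highest and wildtype replicate 2 next was also the order in Cux2, Slitrk6, the habenula gene Chrna3 and the hippocampal Neurod6. It held for 3 of 33 markers (9.09%) and for 966 of 22180 genes (4.36%). The pattern was taken from Meis2 and Prkcd, which are 2 of these 3 markers. That an array of each genotype stood on top was fixed by that choice.

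**Figure D3:**
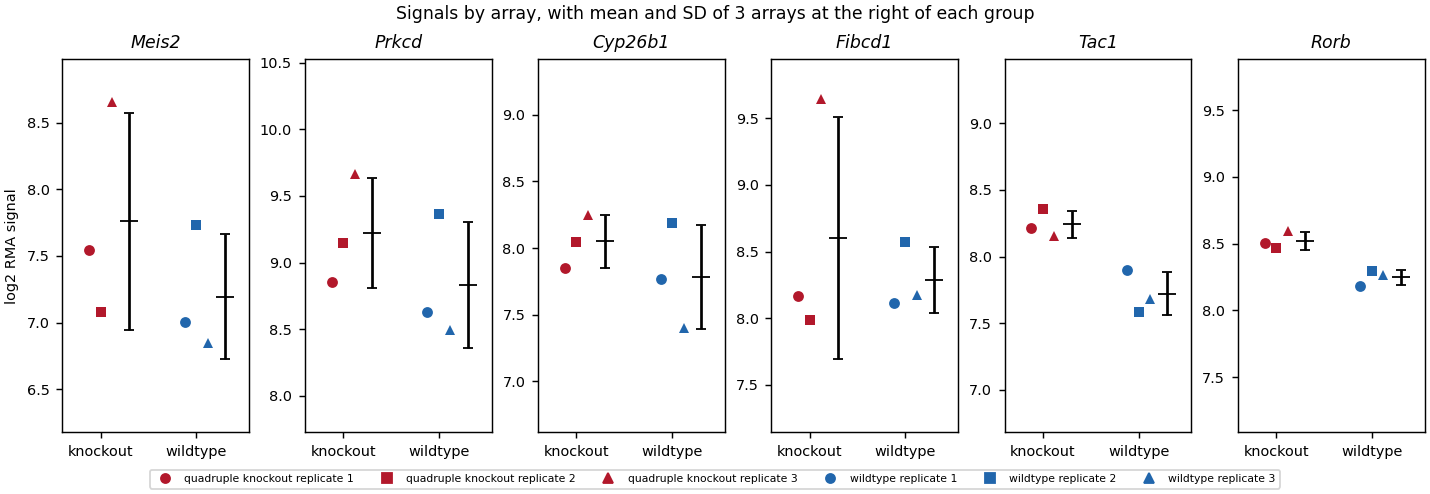
Log2 RMA signal of Meis2, Prkcd, Cyp26b1, Fibcd1, Tac1 and Rorb in each array, knockout in red left of wildtype in blue, with the mean and SD of 3 arrays beside each group and a vertical axis of its own for each gene. Knockout replicate 3 and wildtype replicate 2 are the upper arrays in the first 4 panels, whereas Tac1 and Rorb separate the genotypes.

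The hypothalamus was the region whose markers lay mostly to one side. Of 7 measured markers 6 were lower in the knockout by their mean and 1 higher, and the median difference was -0.21. At an unadjusted limma p under 0.05, 3 of the 7 were lower (42.9%, beside 5.14% of all probe sets). That share was 8.24% of probe sets with a mean signal between 5 and 6 and 8.12% between 6 and 7. Of the 5 markers with a mean above background 2 had such a p, Avp and Oxt. No marker of the region passed the adjusted threshold, and the members were chosen with earlier results of these data known. A pair of peptides of the lateral hypothalamus lay under the background level. Hcrt, the precursor of orexins, and Pmch, the precursor of melanin-concentrating hormone, were below background in all 6 arrays. Pmch read 4.85, 4.94 and 4.92 in the knockout and 5.19, 5.31 and 5.15 in the wildtype. The knockout arrays were the lower 3 (limma adjusted p = 0.417), and no fold is given since both groups lay under the background level. Over the 5 markers with a mean above background the median difference was -0.20.

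Avp and Oxt encode the precursors of vasopressin and oxytocin, the hormones of the magnocellular neurons, and are neighbours on chromosome 2. The genes are paralogs with closely similar coding sequence, so their probe sets may not be fully separate. Avp read 7.12, 7.13 and 7.12 in the knockout and 7.50, 7.42 and 7.21 in the wildtype. The 3 knockout arrays were almost equal and lay below every wildtype array (7.12 ± 0.01 against 7.38 ± 0.15, SD, n = 3 each, a difference of -0.26, SE 0.09, limma adjusted p = 0.511). Oxt read 6.97, 6.81 and 6.69 in the knockout and 7.19, 7.06 and 6.95 in the wildtype. The arrays overlapped by a small step, since knockout replicate 1 read higher than wildtype replicate 3 (difference -0.24, SE 0.10, limma adjusted p = 0.546). The CATAAA copies printed above stand in the windows of both genes.

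The remaining peptides of the region gave smaller or mixed differences. Trh, the precursor of thyrotropin-releasing hormone, read 6.23, 6.42 and 6.38 in the knockout and 6.61, 6.59 and 6.42 in the wildtype (difference -0.20, SE 0.09, limma adjusted p = 0.564). The wildtype arrays were the upper 3, though knockout replicate 2 and wildtype replicate 3 nearly touched. Pomc, the precursor of melanocortins and beta-endorphin, read 6.17, 5.71 and 5.98 in the knockout and 6.31, 6.03 and 5.99 in the wildtype, and so straddled the background level. Gal, the precursor of galanin, was the exception to the direction, with 9.49, 9.82 and 9.31 in the knockout and 9.69, 9.27 and 9.23 in the wildtype. Its arrays overlapped widely (difference 0.14, 95% interval -0.25 to 0.53).

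Probe sets with a mean signal between 5 and 7 leaned the same way, while those below 5 leaned little (median difference -0.01, 53.5% below 0). Among all probe sets with a mean signal between 5 and 6 the median difference was -0.06 and 67.4% lay below 0, and between 6 and 7 it was -0.05 and 65.3% lay below 0. Between 7 and 8 it was 0.01 and 46.9% lay below 0, and between 8 and 9 it was 0.05 and 32.4% lay below 0. Of the 7 hypothalamus markers 5 had a mean between 5 and 7, Avp had one between 7 and 8 and Gal one above 9. The order of the 6 arrays by the hypothalamus average was the same as their order by median signal, with wildtype replicate 1 at the top of both and knockout replicate 3 at the bottom. Over the 5 markers with a mean above background the orders differed, since wildtype replicate 3 fell below knockout replicates 1 and 2. The median of the hypothalamus markers was -0.15 after quantile normalization and -0.16 after median centring. The part of the array offset in this difference was not tested beyond these settings. Leaving out wildtype replicate 3, the wildtype array with the lowest median signal, raised the count of lower markers at an unadjusted limma p under 0.05 to 7, namely Isl1, Six3, Hcrt, Pmch, Oxt, Avp and Trh. Of these Isl1, Hcrt and Pmch lay below background in every array. The share of all probe sets lower at that p in this fit is not given here, so the count has no base to be read against. Leaving out knockout replicate 3, wildtype replicate 1 or wildtype replicate 2 left 1, which was Pmch each time.

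**Figure D4:**
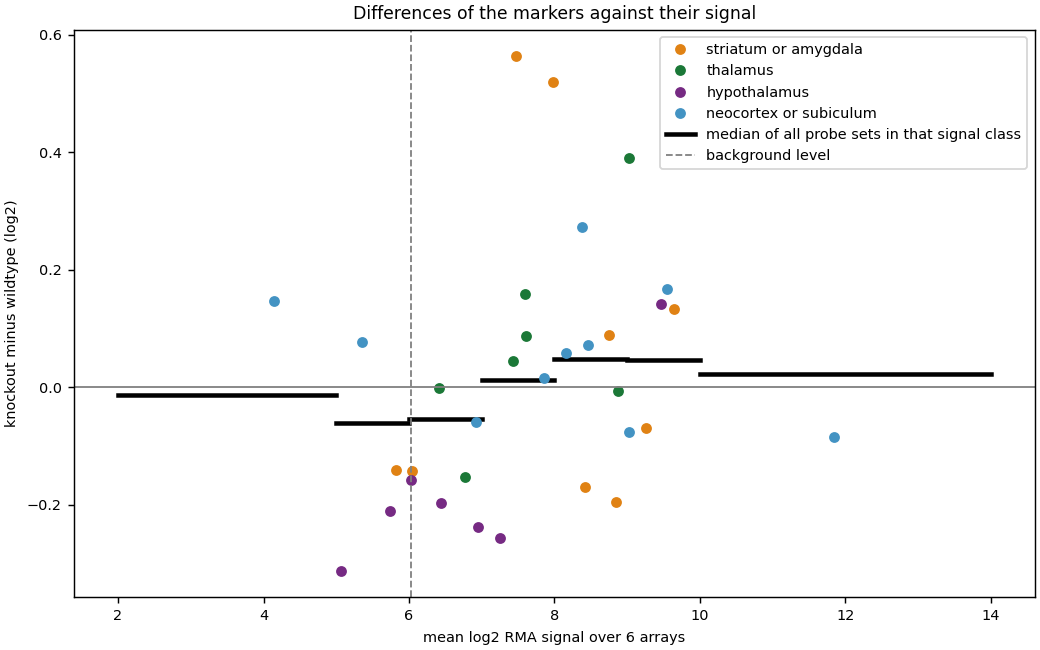
Difference of each marker, knockout minus wildtype on the log2 scale, against its mean log2 signal over 6 arrays, coloured by region, with black bars for the median of all probe sets in each signal class and a dashed line at the background level of 6.03. The bars lie at -0.06 and -0.05 between signals of 5 and 7, and the hypothalamus markers below a signal of 8 all lie under the bar of their class.

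Among the 10 markers of the neocortex or subiculum 8 had a mean above background, 7 differences lay above 0 and 3 below, and the median was 0.07. Brighter probe sets as a whole leaned the same way. Between signals of 8 and 9 the median over all probe sets was 0.05 with 32.4% below 0. Between 9 and 10 it was 0.05 with 30.6% below 0. Rorb, the nuclear receptor of layer 4, read 8.50, 8.47 and 8.60 in the knockout and 8.18, 8.29 and 8.26 in the wildtype. The 3 knockout arrays were the upper ones, with a knockout mean of 8.52 ± 0.07 and a wildtype mean of 8.25 ± 0.06 (SD, n = 3 each). The difference was 0.27 (SE 0.07, 95% interval 0.10 to 0.44, limma adjusted p = 0.451). Tac1 and Rorb had an unadjusted p under 0.05 in each of the 15 alternative settings, and an adjusted p above 0.05 in each.

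The other layer markers had differences whose intervals include 0. Cux2, a homeobox factor of the upper layers, differed by 0.06 (95% interval -0.12 to 0.24). Fezf2, the factor that specifies neurons projecting below the cortex, read 9.56, 9.53 and 9.78 in the knockout and 9.29, 9.46 and 9.62 in the wildtype. Wildtype replicate 3 lay among the knockout arrays (difference 0.17, SE 0.11, limma adjusted p = 0.675). Bcl11b, which acts with Fezf2 in deep-layer neurons and is also expressed in dentate granule cells, read 11.84, 11.89 and 11.69 in the knockout and 11.88, 11.81 and 11.97 in the wildtype, with overlapping arrays (difference -0.08, SE 0.08). Tbr1, a factor of layer 6 neurons, differed by 0.07 (95% interval -0.11 to 0.25). Foxp2, a layer 6 factor that thalamic and striatal neurons share, was below background in all 6 arrays.

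The remaining 4 markers of the list also had intervals that include 0. Rspo1, a secreted enhancer of Wnt signalling, read 9.00, 8.97 and 8.98 in the knockout and 9.09, 9.08 and 9.00 in the wildtype. The arrays did not overlap, over a range of only 0.12 (difference -0.08, SE 0.07, limma adjusted p = 0.741). Nts, the precursor of neurotensin, was below background in all 6 arrays. Fn3k, a kinase that acts on glycated proteins, and Cartpt, the precursor of the CART peptides, differed by 0.02 and -0.06 with overlapping arrays.

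**Figure D5:**
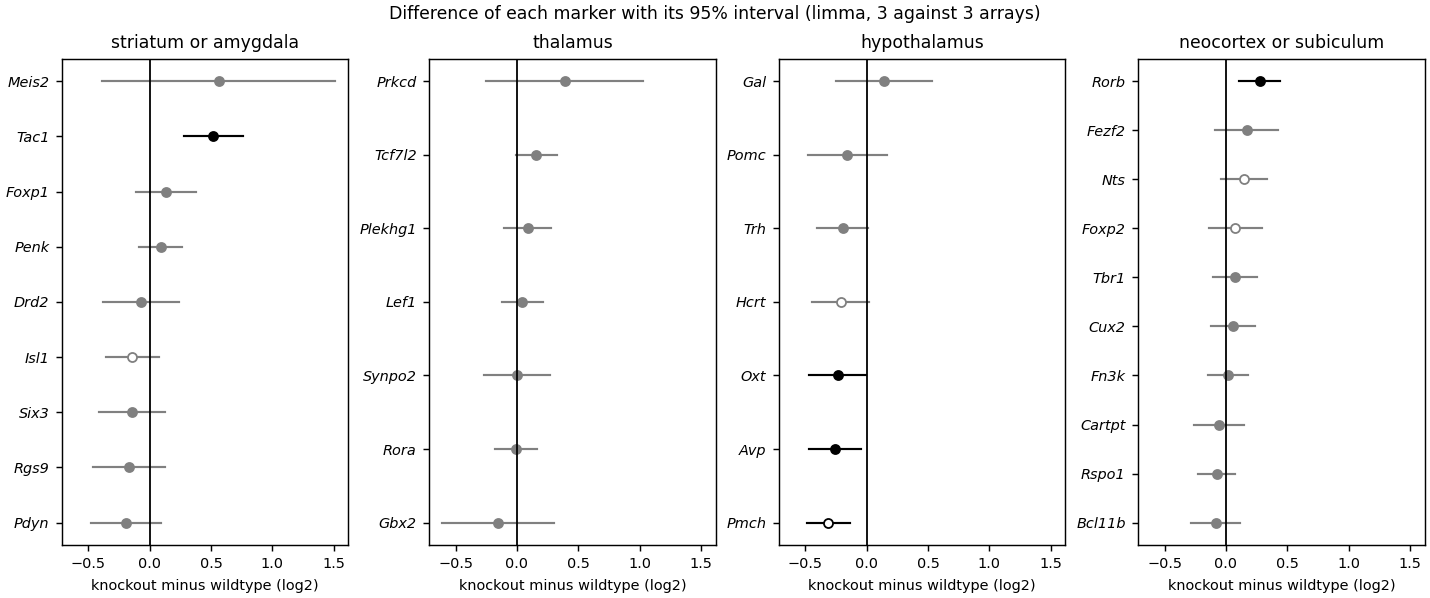
Difference of each marker, knockout minus wildtype on the log2 scale, with its 95% interval from limma (3 against 3 arrays), in 4 panels by region. Black marks an unadjusted p under 0.05, open circles mark a mean below background, and Meis2 and Prkcd have the widest intervals of their regions.

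The other genes listed for these regions gave few differences at an unadjusted p under 0.05, and none passed the adjusted threshold. Their counts above 0 stand beside 11737 of 22180 genes above 0, and beside the lean of brighter probe sets given above. For the striatum 9 of 11 further genes lay above 0 (median 0.07), with Adcy5, an adenylyl cyclase, at 9.59, 9.34 and 9.72 in the knockout and 9.08, 9.29 and 9.20 in the wildtype (difference 0.36, limma adjusted p = 0.486). Drd3, a dopamine receptor of the ventral striatum, differed by -0.24 (limma adjusted p = 0.488), and these were the only ones of the 11 at an unadjusted p under 0.05. For the thalamus 8 of 11 lay above 0 (median 0.14), none at that p. The smallest p was that of Cacna1g, a T-type calcium channel (difference 0.22, limma adjusted p = 0.580), and the next that of Slitrk6, which was below background in all arrays. For the habenula, above the thalamus, 4 of 5 lay above 0 (median 0.10), and Tac2, the precursor of neurokinin B, read 8.29, 8.41 and 8.61 in the knockout and 8.18, 8.08 and 8.09 in the wildtype (difference 0.32, limma adjusted p = 0.486).

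The further hypothalamus genes had a median near 0. Of 11 genes 8 lay below 0, with a median of -0.03 and none lower at an unadjusted p under 0.05. Gpr101, an orphan receptor, was the exception in the other direction, with 7.94, 7.20 and 8.08 in the knockout and 7.20, 7.27 and 7.11 in the wildtype. Knockout replicate 2 fell within the wildtype range (difference 0.55, SE 0.21, limma adjusted p = 0.534). For the neocortex 7 of 10 further genes lay above 0 (median 0.08). Nxph4, a neurexophilin of deep-layer neurons, read 7.33, 7.23 and 7.06 in the knockout and 6.79, 6.70 and 6.86 in the wildtype (difference 0.42, SE 0.09, limma adjusted p = 0.388). Nr4a2, an orphan nuclear receptor of the claustrum and deep layers, read 9.50, 9.42 and 9.90 in the knockout and 9.01, 9.36 and 9.17 in the wildtype (difference 0.43, SE 0.15, limma adjusted p = 0.509). In both genes the genotypes did not overlap.

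Genes of hippocampal principal cells, of the choroid plexus and of interneurons were read beside the markers. The 14 principal cell genes had a median difference of -0.02, with 7 above 0 and 7 below, and averages of 0.03, -0.10 and 0.07 in the knockout arrays and -0.09, 0.07 and 0.01 in the wildtype arrays. Rgs14, a gene of CA2 neurons, and Dsp, a desmosomal gene of dentate granule cells, had the smallest p of that list (differences -0.12 and -0.18, limma adjusted p = 0.689 and 0.708). The 7 measured choroid plexus genes had a median of -0.09, with averages of 0.08, -0.20 and -0.10 in the knockout arrays and 0.05, 0.22 and -0.05 in the wildtype arrays. The span of -0.20 to 0.22 was wider than the -0.12 to 0.21 of the hypothalamus list, and wildtype replicate 2 was highest for 4 of the 7 genes. Aqp1, a water channel, differed by -0.22 (limma adjusted p = 0.560). Ttr, the transthyretin that the choroid plexus secretes, read 8.38, 7.44 and 7.38 in the knockout and 8.42, 8.94 and 7.77 in the wildtype, with knockout replicate 1 apart from the other knockout arrays (difference -0.64, SE 0.35, limma adjusted p = 0.620). Otx2, which defines the choroid plexus, and Clic6 were below background in all arrays.

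Interneuron genes lay above 0 in 10 of 10 cases, with a median difference of 0.19 and averages of 0.09, 0.08 and 0.16 in the knockout arrays and -0.09, -0.09 and -0.15 in the wildtype arrays. Over all genes 11737 of 22180 lay above 0. Among probe sets with a signal between 8 and 9, between 9 and 10 and above 10, 32.4%, 30.6% and 38.0% lay below 0. At an unadjusted p under 0.05 were Gad2, a synthetic enzyme of GABA, Dlx2, a factor of interneuron precursors, Reln, the secreted glycoprotein reelin, and Sst, the precursor of somatostatin. Their differences were 0.34, 0.28, 0.43 and 0.29, with limma adjusted p of 0.399, 0.419, 0.451 and 0.540. These were 4 of 10 genes, beside 3.91% of all probe sets higher at that unadjusted p. In the same 3 signal classes the share was 7.81%, 6.27% and 1.97%. The list was chosen with earlier results of these data known, and the study had reported Gad2 as higher in these arrays. The counts therefore describe the list and are no independent finding. Tac1 and Penk are known from hippocampal interneurons as well as from the striatum. Knockout arrays lay above wildtype arrays both for the interneuron list and for Tac1. Within the knockout the orders were reversed, with replicate 3 highest for the list and lowest for Tac1. The part of interneuron RNA in the Tac1 difference was not tested. The markers listed as also known from hippocampal cells had a median difference of 0.07 over 8 genes, and the other 25 had one of -0.06. Since that list is not complete, the other 25 may hold further genes of hippocampal cells.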

How the data were processed

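Hippocampal RNA of 3 quadruple knockout and 3 wildtype mice was read on Mouse Gene 2.0 ST arrays (Affymetrix), whose genotype and replicate come from the labels. The log2 signals deposited by the authors came from RMA in Affymetrix Expression Console. The submitters' processing notes list the Transcriptome Analysis Console besides, and for neither tool version nor genome build is a value given in the sources used here. Gene symbols came from the platform's annotation, in which 23521 of 34472 have 1 symbol, 1820 several and 9131 none, and those with several or none were tested but not named. Precision is limited by the number of arrays, which have no depth.

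Limma 3.58.1 (R 4.3.3) was fitted to all probe sets with genotype as the single term, through lmFit and eBayes, and its two-sided p were adjusted over all of them by Benjamini-Hochberg. Lists were described by counts, medians and averages by array, with no test. The members and lists were chosen with earlier results of these data known. Values in every array are given for members with an unadjusted p under 0.05 or with groups apart by at least 0.3, for the 2 brightest and the most variable member of each region, and for some others chosen after their values were seen. In the further lists up to 4 genes at that p, or otherwise the 2 with the smallest p, are named. Limma was tested on simulated data. Promoter windows were taken from RefSeq (GRCm38.p6), where 30 of the 33 measured members matched by symbol, and figures were drawn with matplotlib 3.10.9. Each array was left out in turn. Other alternatives were array weights, robust variances with an intensity trend, a replicate block, an ordinary test per probe set (in place of the Anova of the methods), median centring, quantile normalization, removal of dim probe sets, a fit by gene (1 probe set, or the mean of all) and the 1.5-fold rule of the methods.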

Additional observations from a re-analysis of the deposited data

How the results depend on the processing

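Probe sets past the limma adjusted p of 0.05 numbered 48, against 24 with the ordinary test per probe set, 7 with 1 probe set per gene in the fit, 10 with the mean of all probe sets of a gene, 151 under the 1.5-fold rule with an unadjusted p, and 35 to 41 with 1 array left out. The ordinary test shares no spread between probe sets, and the fits by gene leave out probe sets without 1 symbol. With the replicate number as a block 39 passed. Same-numbered arrays correlated at 0.004, -0.123 and -0.031 in their deviations from the group means, and differently numbered ones at -0.088 to 0.112. These values showed no pairing by number, and a pairing of siblings under another numbering was not tested. The block altered neither the count of 2 markers higher nor that of 3 markers lower.

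Under the 1.5-fold rule 0 markers were higher and 0 lower over all 6 arrays, while Tac1 passed it without wildtype replicate 1 and Prkcd without wildtype replicate 2. Meis2 exceeded 1.5-fold after median centring (0.617) with no p under 0.05. With 1 array left out between 2 and 3 markers were higher and between 1 and 7 lower, and Avp and Oxt lost their unadjusted p most often. The neocortex or subiculum median of 0.07 was 0.0198 after quantile normalization, 0.119 after median centring, 0.0369 without dim probe sets and 0.0141 to 0.0978 with 1 array left out. The striatum or amygdala median of -0.07 was 0.0099 without dim probe sets and ran from -0.127 to 0.0662 with 1 array left out, 0.0662 being the value without wildtype replicate 1. The thalamus median of 0.0445 was 0.0978 after median centring and 0.0137 to 0.0892 with 1 array left out. The hypothalamus median stayed below 0 in every setting run, from -0.29 to -0.17 with 1 array left out.

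The markers that turned sign were near 0 to begin with. Synpo2 differed by 0.0202 with array weights, 0.0479 after quantile normalization, 0.0516 after median centring and -0.0913 to 0.117 with 1 array left out. Fn3k differed by -0.0145 after quantile normalization and -0.0082 to 0.0462 with 1 array left out. Rora differed by 0.0473 after median centring and -0.029 to 0.034 with 1 array left out, and Drd2 by -0.156 to 0.0662. In all, 8 of 198 marker values with 1 array left out turned sign, in 4 markers, as did 5 of 292 in the other settings, in 3 markers, and no marker passed the adjusted threshold in any. The cause was not tested. Markers below background carry no measured difference, and groups of 3 arrays are too small to test for single deviating arrays.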
